A study of Mus musculus with 16 samples.

Results

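The Th2 cytokine locus on mouse chromosome 11 was taken as the stretch of mm9 from 53390000 to 53630000, which holds Il4, Il13, Rad50, Il5 and Irf1. Its members are the open chromatin regions that overlap this 240 kb window, without regard to any measured value. There were 34 of them, among 5563 regions on chromosome 11 and 75363 regions in all. The regions come from ATAC-seq, which marks DNA that a transposase can reach, in CD4+CD25+ Treg cells of C57BL/6 mice. The 16 samples came from 8 mice, and every mouse gave Treg cells of 1 tissue and of its own spleen. Epididymal adipose tissue gave 2 samples (VAT), injured hindlimb muscle 2 (Muscle), and colonic lamina propria 4, which are titled Nrp1p (2) and Nrp1n (2). The other 8 samples were the matched spleens, 2 for each of these groups. The labels used here name no age, no transgene and no method of injury.

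The values are positions only. One list was analysed for all 16 samples, so a region of the locus may have been open in 1 tissue, in the spleen or in every sample, and these cannot be told apart. Depth per sample is unknown, no value has a replicate error, and no tissue was compared with its spleen. The labelled cell type could not be checked against marker genes, since nothing analysed here measures expression. Comparisons of regions below set the locus beside the whole list or chromosome 11, each with the locus counted in. All comparisons are descriptions without a test.

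Il4, Il13 and Il5 encode cytokines of type 2 immunity. T helper 2 cells secrete them, IL-4 and IL-13 act through receptors that share a chain and activate STAT6, and IL-5 supports eosinophils. Rad50 encodes a subunit of a complex that repairs DNA breaks, and its introns hold a locus control region that acts on the neighbouring cytokine genes. Irf1 encodes a transcription factor induced by interferons. GATA3 is the factor best known for opening the cytokine genes, and it is also made by a part of the Treg cells in tissues such as adipose tissue. In the RefSeq gene table for GRCm38.p6, a later build than mm9, the genes follow each other in the order Kif3a, Il4, Il13, the pseudogene Rps2-ps4, Rad50, Il5, the microRNA gene Mir7671, Irf1 and the long noncoding RNA gene Gm12216. The start-site table of the same build puts the Il4 and Il13 promoters on the minus strand and the Il5 and Irf1 promoters on the plus strand.

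The promoter table held 4 of the 5 member genes, Rad50 being the exception. The 250 bases before the outermost start site of each are shown 5′ to 3′, because they are the regulatory sequences of the locus whose letters could be read here. Capitals mark matches, on either strand, to a GATA motif (AGATAA or TGATAA), a STAT6-type motif (TTC and GAA with 4 bases between), the GAS motif of STAT factors (TTCNNNGAA), the NFAT core (GGAAA), an AP-1 motif (TGANTCA) or an IRF-type motif (a pair of GAAA with 2 bases between). Overlapping matches run together. On GRCm38.p6 the stretches are chr11:53618666-53618915 (minus strand) for Il4, chr11:53634703-53634952 (minus strand) for Il13, chr11:53720544-53720793 (plus strand) for Il5 and chr11:53769764-53770013 (plus strand) for Irf1. These positions cannot be set beside the mm9 positions of the regions, so whether a region covers 1 of these promoters was not determined.
Il4: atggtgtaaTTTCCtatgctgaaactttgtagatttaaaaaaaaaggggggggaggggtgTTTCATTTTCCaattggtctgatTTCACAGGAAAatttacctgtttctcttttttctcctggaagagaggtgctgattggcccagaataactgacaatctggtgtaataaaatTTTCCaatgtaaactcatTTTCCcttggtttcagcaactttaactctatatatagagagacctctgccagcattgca
Il13: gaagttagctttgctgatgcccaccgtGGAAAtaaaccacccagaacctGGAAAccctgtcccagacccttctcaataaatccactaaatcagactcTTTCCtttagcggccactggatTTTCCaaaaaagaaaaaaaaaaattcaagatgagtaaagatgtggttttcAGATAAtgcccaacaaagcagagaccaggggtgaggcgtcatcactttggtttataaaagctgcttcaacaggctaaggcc
Il5: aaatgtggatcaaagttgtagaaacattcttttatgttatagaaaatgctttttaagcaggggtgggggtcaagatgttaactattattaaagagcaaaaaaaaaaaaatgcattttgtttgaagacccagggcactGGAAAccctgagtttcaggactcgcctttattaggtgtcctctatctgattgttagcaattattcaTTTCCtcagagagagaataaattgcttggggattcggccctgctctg
Irf1: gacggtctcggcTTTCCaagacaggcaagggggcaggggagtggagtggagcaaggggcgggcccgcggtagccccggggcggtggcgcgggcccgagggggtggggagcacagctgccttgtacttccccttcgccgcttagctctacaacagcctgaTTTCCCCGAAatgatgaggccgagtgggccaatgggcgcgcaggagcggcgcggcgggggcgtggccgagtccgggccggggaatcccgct

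The Il4 promoter stretch had 5 NFAT core matches. It also had 1 STAT6-type match, 167 to 158 bases before the start, and 1 IRF-type match, 190 to 181 bases before it. NFAT factors carry the signal of the antigen receptor to cytokine genes. The STAT6-type match overlapped the NFAT core match at 161 to 157 bases, and the IRF-type match overlapped the 1 at 184 to 180 bases. The Il13 stretch had 4 NFAT core matches. It was the only 1 of the 4 stretches with AGATAA or TGATAA, 81 to 76 bases before the start. Other GATA letters, such as AGATAG, were not searched. The Il5 stretch had 2 NFAT core matches and none of the other 5 motifs as searched. It does hold ctatct, which is AGATAG on the other strand and was not counted. The Irf1 stretch had a GAS match 90 to 82 bases before the start, overlapping 1 of its 2 NFAT core matches. No AP-1 match was found in the 4 stretches. Among 32851 promoter stretches of the same length, 55.6% held the NFAT core, 16.6% a GATA match, 7.02% a GAS match, 6.75% an AP-1 match, 5.85% a STAT6-type match and 2.98% an IRF-type match. The cytokine promoters were poor in G and C, with 37.6% for Il4, 37.6% for Il5 and 43.2% for Il13, against 71.2% for Irf1 and a median of 52.4% over all promoter stretches. These shares count promoters with any match, and the number of matches per stretch was not compared with other promoters. A match describes these letters and is not evidence that a factor binds.

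The locus was dense in open regions. It held 1.42 regions per 10 kb, which was 3.10 times the mean of chromosome 11 (0.457) and 4.95 times the mean of chromosomes 1 to 19 and X (0.286). Cut into consecutive tiles of the same 240 kb, these chromosomes gave 10990 tiles with a median of 2 regions. Of the tiles, 293 (2.67%) held 34 regions or more, and the fullest held 68. No region lay in 43.2% of the tiles; among the 6240 tiles with a region the median was 9, and 4.70% held 34 or more. On chromosome 11 alone, 32 of 508 tiles (6.30%) held as many. So the locus lay in the upper part of the range and other stretches of the same chromosome were denser. Open regions covered 7147 bases of the locus, or 2.98% of it, against 0.926% of chromosome 11 and 0.577% of all chromosomes.

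**Figure D1:**
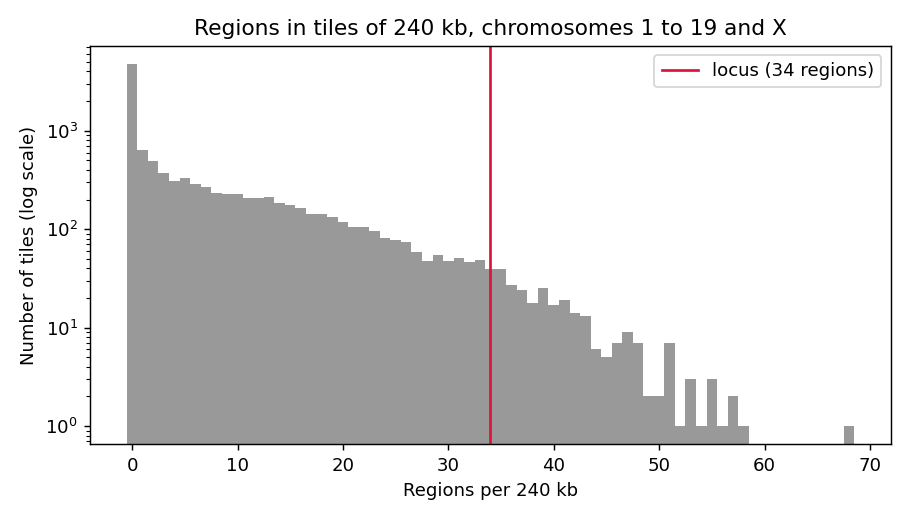
Number of 240 kb tiles of chromosomes 1 to 19 and X (vertical axis, log scale) by the number of open regions they hold (horizontal axis). The red line marks the Th2 cytokine locus with 34 regions, a number that 293 of 10990 tiles reached or passed.

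The regions were not spread evenly over the genes. The stretches used here rest on approximate mm9 positions of 53.43 Mb for Il4, 53.53 Mb for Il5 and 53.58 Mb for Irf1. These positions are given to 10 kb only, so a distance to such a position is not a distance to the gene. Each of these genes was given the stretch from 5 kb before to 15 kb after its position, and the DNA between the Il4 and Il5 stretches was taken as that of Il13 and Rad50. A stretch names its neighbourhood and does not assign a region to a gene, promoter, exon or intron. Its edges are not gene edges, and part of Il13 may lie in the Il4 stretch. From the Il4 stretch to the Il5 stretch, 120 kb held 12 regions, or 1.00 per 10 kb. The Irf1 stretch and the DNA beyond it, 55 kb, held 14 regions, or 2.55 per 10 kb. As many as 12 regions were found in 9.85% of 120 kb tiles, and as many as 14 in 0.803% of 55 kb tiles. With regions within 500 bp joined into sites, the contrast was smaller, 10 sites (0.833 per 10 kb) against 8 sites (1.46 per 10 kb). Tiles with as many sites then made up 8.43% and 2.65%. All 185 kb before the Irf1 stretch, with the DNA on the Kif3a side of Il4, held 20 regions (1.08 per 10 kb). Joined, these were 17 sites (0.919 per 10 kb). Of 185 kb tiles, 7.09% held as many regions and 5.56% as many sites. The 35 kb at either end of the window held 5 sites each.

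**Figure D2:**
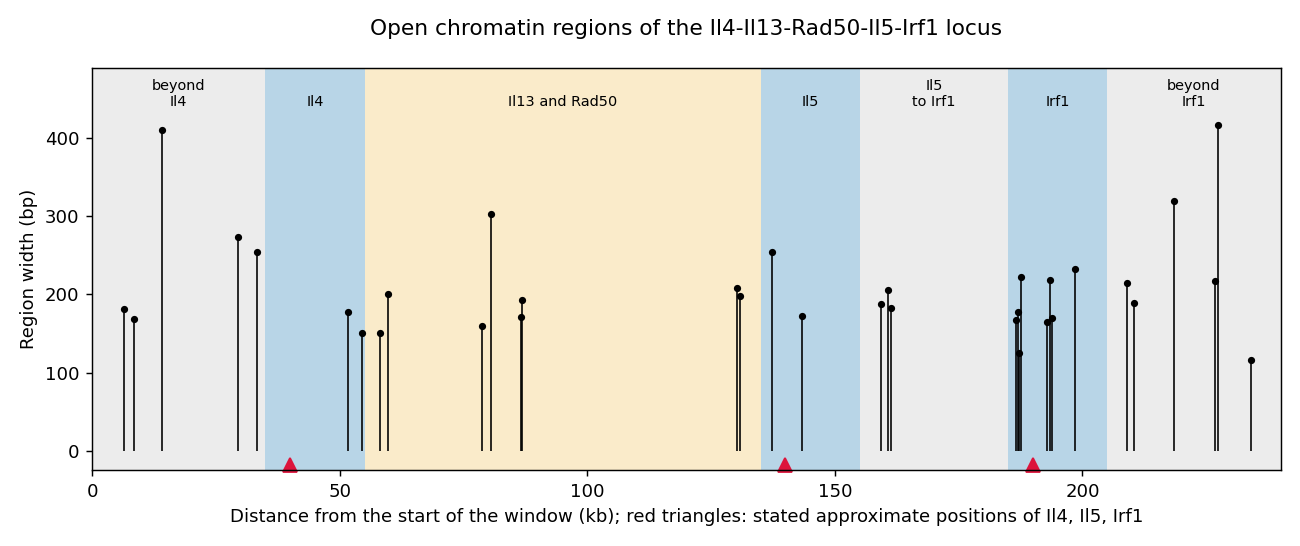
Width of each of the 34 open regions in bp (vertical axis) at its distance from the start of the window in kb (horizontal axis). Shading marks the 7 stretches and red triangles the approximate positions of Il4, Il5 and Irf1; regions crowd in the Irf1 stretch (8, or 3 sites), whereas a 43.2 kb part of the Il13 and Rad50 stretch has none.

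On the outer side of Il4, toward Kif3a, 5 regions lay in 35 kb. Kif3a encodes a kinesin motor subunit needed for cilia. The first of the 5 (chr11:53396388-53396568, 181 bp) was followed by a region of 169 bp (chr11:53398450-53398618) and by the second widest of the locus, 410 bp (chr11:53403882-53404291). After 15023 bp without a region came 273 bp (chr11:53419315-53419587) and 254 bp (chr11:53423216-53423469). This last was the nearest region to the approximate Il4 position, 6531 bp before it. All 5 stood alone, with no neighbour within 500 bp. Their median width of 254 bp was the highest of the 7 stretches, against 191 bp in the whole locus.

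The Il4 stretch held 2 regions in 20 kb, and the approximate Il4 position lay in a gap of 18027 bp (chr11:53423470-53441496). The regions were 178 bp (chr11:53441497-53441674) and 150 bp wide (chr11:53444485-53444634), both on the side toward Il13. The nearer of them began 11497 bp after the Il4 position. Of all 20 kb tiles, 14.1% held 2 regions or more and 76.1% held none. With the stretch drawn 10 kb to both sides of the position, it held 1 region, the 254 bp region on the outer side.

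Il13 and Rad50 shared the longest stretch, 80 kb, with 8 regions at 1.00 per 10 kb. A first pair lay at the Il4 end, with 150 bp (chr11:53448139-53448288) and 201 bp (chr11:53449691-53449891). With the 2 regions of the Il4 stretch, this pair formed a group of 4 over 8.40 kb. After 18.8 kb without a region, a second group of 4 over 8.28 kb followed (chr11:53468687-53476963). It held regions of 159 and 303 bp, the latter (chr11:53470334-53470636) the widest of the stretch, and then 171 and 193 bp separated by a gap of 119 bp. Next came the longest gap of the locus, 43.2 kb (chr11:53476964-53520197). Gaps of this length or more made up 11.1% of all gaps between neighbours in the list. The stretch closed with a pair of 208 and 198 bp (chr11:53520198-53520405 and chr11:53520781-53520978), 375 bp apart. By gene order, Il13 is on the Il4 side and Rad50 on the Il5 side. Which of the 8 regions lie in Rad50 introns, and whether the control region is among them, was not determined.

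The Il5 stretch held 2 regions in 20 kb, 254 bp (chr11:53527171-53527424) and 172 bp (chr11:53533320-53533491). They lay on both sides of the approximate Il5 position, 2576 bp before and 3320 bp after it. Both distances are shorter than the 10 kb to which the position is given, so whether the regions flank Il5 was not determined. Drawn 10 kb to both sides, the stretch held 4 regions, as it then took in the pair at the end of the Il13 and Rad50 stretch. From Il5 to Irf1, 3 regions lay in 30 kb and all within 2203 bp (chr11:53549181-53551383), with widths of 188, 205 and 182 bp. Gaps of 15.7 kb before and 25.1 kb after set this group apart.

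The Irf1 stretch was the densest in regions as listed, with 8 regions in 20 kb, or 4.00 per 10 kb. Only 0.365% of 20 kb tiles held 8 or more. The regions formed 2 tight groups and 1 single region. The first group had 4 regions in 1128 bp (chr11:53576503-53577630), with widths of 167, 178, 125 and 222 bp and gaps of 299, 49 and 88 bp. The second had 3 regions in 1080 bp (chr11:53582838-53583917), with widths of 165, 218 and 170 bp and gaps of 300 and 227 bp. The single region of 232 bp followed 4439 bp later (chr11:53588357-53588588). The approximate Irf1 position lay between the groups, 2370 bp after the first and 2838 bp before the second. As this position is given to 10 kb only, where Irf1 starts relative to the groups was not determined. When regions within 500 bp were joined into 1 site, the 8 regions gave 3 sites, a number that 5.4% of 20 kb tiles reached. The 5 sites in the 35 kb at either end of the window were a number that 3.99% of 35 kb tiles reached. Counted in sites, the Irf1 stretch was therefore not rarer for its length than these ends.

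Beyond Irf1, toward Gm12216, 6 regions lay in 35 kb. They included the widest region of the locus, 416 bp (chr11:53617115-53617530), which only 0.732% of the list matched or exceeded, and a neighbour of 217 bp (chr11:53616651-53616867) at 247 bp from it. A region of 319 bp (chr11:53608371-53608689) was the third widest, and regions of 214 bp (chr11:53598950-53599163) and 189 bp (chr11:53600268-53600456) lay nearest to Irf1. The last region of the window, 116 bp (chr11:53623894-53624009), was also its narrowest. Outside the window the next regions were 25277 bp further on this side and 15452 bp before the first region on the Kif3a side.

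**Figure D3:**
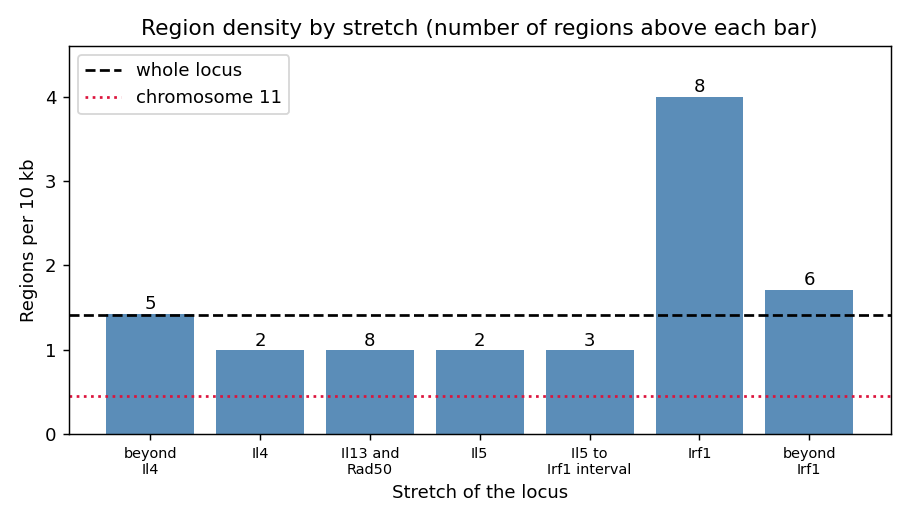
Open regions per 10 kb (vertical axis) in the 7 stretches of the locus (horizontal axis), with the number of regions above each bar. The dashed line is the whole locus (1.42) and the dotted line chromosome 11 (0.457); the Irf1 stretch stands at 4.00 (8 regions in 3 sites) and every stretch lies above the chromosome's mean.

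In width the members resembled the list as a whole. Their median was 191 bp (95% interval 172 to 217 bp from binomial ranks, which take the regions as independent), the same as the 191 bp of the whole list, with quartiles of 170.2 and 221 bp against 165 and 227 bp. Between 150 and 250 bp lay 25 of the 34 (73.5%), against 74.4% of the list. At least 400 bp wide were 2 of 34 (5.88%), against 1.00% of the list, and both lay in the outer ends of the window. The rest of the locus, from the Il4 to the Irf1 stretch, reached 303 bp at most. In the list, 12 exact widths hold far more regions than their neighbouring widths. They made up 3 of the 34 members (8.82%, exact binomial 95% interval 1.86 to 23.7%), 2 of 150 bp and 1 of 116 bp, against 14.2% of the list.

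Gaps between neighbours were shorter in the locus at the median, but not beyond the interval of that median. The median gap was 3628 bp (95% interval 1192 to 6192 bp from binomial ranks, 33 gaps), and the list's median of 5200.5 bp lay inside that interval. After regions within 1000 bp were merged, the medians were 5869.5 bp in the locus and 10334 bp in the list. Of the gaps, 26 of 33 (78.8%) were under 10 kb, against 63.7% in the list, and 9 of 33 (27.3%) were under 500 bp, against 22.2%. A neighbour within 500 bp was present for 15 of 34 members (44.1%), against 38.7% of regions in the list. Joined at 500 bp, the locus had 25 sites, of which 19 were single regions (76.0%, against 78.8% in the list). The 6 sites of more than 1 region comprised the 4-region and 3-region groups of the Irf1 stretch, and pairs in the Il13 and Rad50 stretch (2), between Il5 and Irf1 (1) and beyond Irf1 (1). Sites of 4 or more regions made up 1.38% of all sites in the list. Within these sites, the 9 distances between neighbouring centres ran from 200.5 to 629.5 bp with a median of 471.5 bp.

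**Figure D4:**
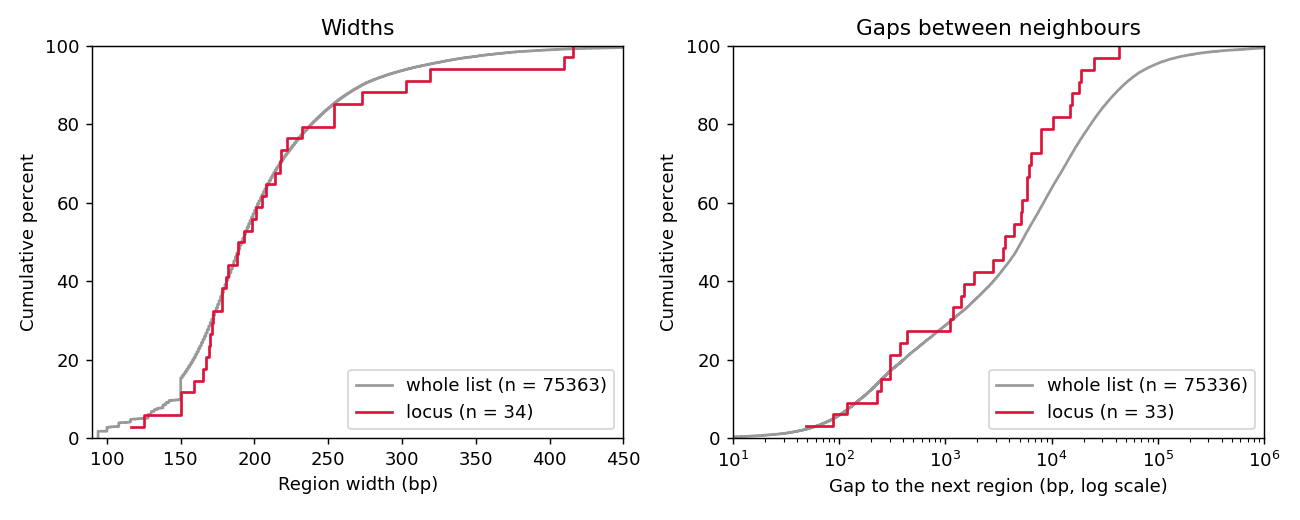
Cumulative percent (vertical axes) of regions by width in bp (left) and of gaps by length in bp on a log scale (right), for the locus in red (34 regions, 33 gaps) and the whole list in grey. The width curves run close together around the shared median of 191 bp; the gap curve of the locus lies above that of the list beyond about 1 kb, with medians of 3628 and 5200.5 bp.

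Linked where gaps were under 10 kb, the members fell into 8 groups, of 3, 2, 4, 4, 4, 3, 8 and 6 regions in order from the Kif3a side. The largest was the group of the Irf1 stretch, 8 regions over 12.1 kb (chr11:53576503-53588588). Which group was largest depended on the setting. With links of 5 kb the Irf1 group fell into 4 and 4 regions, level with the group of 4 that begins in the Il4 stretch (chr11:53441497-53449891). After regions within 1000 bp were merged it had 3, and the group beyond Irf1 was the largest with 5. Of all regions in the list, 24.4% belonged to groups of 8 or more. The fullest 10 kb, counted from the start of a region, held the 7 regions of its 2 tight groups, which are 2 sites when regions within 500 bp are joined. Only 0.944% of the regions in the list began a 10 kb stretch with as many. The other groups up to the Il5 to Irf1 interval had 4 regions at most, a size that 55.1% of regions in the list met or passed.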

How the data were processed

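ATAC-seq libraries of Treg cells from 16 samples were represented by 1 deposited list of regions, with chromosome, start and end in bp per the file header and no other value. Build mm9 and the tools HOMER 4.6, Bowtie2 2.2.4, cutadapt 1.8.3, Picard 1.130 and SAMtools 1.3 are named, without roles, per the submitters' processing notes. How the authors called and combined regions, and whether cut positions were shifted, is not given in the sources used here, and these steps decide which regions are listed and how an open site is divided.

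Starts were raised by 1 base to 1-based positions. Groups came from sample titles. Regions were assigned to stretches by their centre. Tiles ran from the first base of each chromosome to its last region, Y left out, and counted region centres. Exact widths were called outstanding above 5 times the median count at widths within 8 bp (at least 10). All regions of the locus are named. The members, stretches and lists were chosen with earlier results of these data known. Promoter letters are from the RefSeq table of GRCm38.p6. Python 3.11.15, NumPy 2.4.6, SciPy 1.17.1 and matplotlib 3.10.9 were used, and the counting was tested on simulated data. The planned tissue comparison and the wider Th2 gene list needed sample values or mm9 gene positions and were not run. No test was made. Alternatives covered merging, width, window, tile, stretch and link settings.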

Additional observations from a re-analysis of the deposited data

How the results depend on the processing

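No paired analysis was possible because no value for single samples was used; for the same reason no replicate was left out. Of 46 alternatives, 31 stayed within 1.5 times the count, or within the 95% interval of the value, and 15 did not. For the share of tiles this interval is binomial and takes the tiles as independent. The locus held 17 regions at or above the median width, a cut that lowers the count by construction. The share of tiles with fewer regions than the locus was 97.3%. It was 96.7% and 98.1% after merging within 500 and 1000 bp, 96.2% for regions at or above the median width, 96.8% and 96.9% with the window widened or narrowed by 20 kb, and 95.3% among tiles with a region. With stretches drawn 10 kb to both sides, the Il4 stretch held 1 region and the Il5 stretch 4. The Irf1 stretch held 3 after merging within 500 or 1000 bp. The largest group had 4 regions with links of 5 kb, 14 with links of 25 kb and 5 after merging within 1000 bp, the last beyond Irf1. The median width was 232 bp after merging within 500 bp, which joins regions by construction. A gap in the list is DNA where no region was called, and unknown depth leaves it unsettled whether it was closed.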
